A study of Mus musculus with 12 samples.

Results

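The genes described here are the 39 of the 39210 genes in the table whose symbol begins with Psma, Psmb, Psmc or Psmd followed by a number, the names given to subunits of the proteasome and to a few of its assembly factors. They were measured by RNA sequencing in frozen heart ventricle of male and female C57BL/6 mice, in 4 groups of 3 libraries. Male and female normoxia mice breathed room air with 20.9% oxygen for 4 weeks. For the male and female hypoxia mice the oxygen was taken down in daily steps of 1% over 14 days to 7%, where they were kept for 2 weeks. No group carried a transgene or another treatment by the labels, an age is not given, and left and right ventricle are not told apart. The labels do not state that each library came from its own mouse, so the p-values measure the spread between these libraries, which may be in part technical. The question was how the proteasome genes differed between hypoxia and normoxia in each sex, and whether the 3 catalytic subunits of the immunoproteasome moved with their constitutive counterparts.

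The proteasome is the barrel-shaped protease that degrades proteins tagged with ubiquitin, and in heart muscle it turns over contractile, mitochondrial and signalling proteins. Its core particle is a stack of rings: outer rings of alpha subunits (Psma genes) gate the entry, and inner rings of beta subunits (Psmb genes) hold the active sites. A regulatory particle caps the core; its base holds a ring of ATPases that unfold substrates (Psmc genes) and scaffold and receptor subunits, and its lid (further Psmd genes) removes the ubiquitin. In cells exposed to interferon, and constantly in many leukocytes, the catalytic subunits Psmb5, Psmb6 and Psmb7 are replaced in new particles by Psmb8, Psmb9 and Psmb10, which gives the immunoproteasome, known for making peptides for MHC class I molecules.

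Library totals ran from 14915830 to 19397851 estimated counts. The ventricular cardiomyocyte markers (Myl2, Myl3, Myh6, Tnni3, Actc1 and Myom1) were high in all 12 libraries, with a summed level of 31640 to 49610 CPM, as the tissue label has it. CPM are counts scaled here to TMM-corrected library sizes, and TPM are the deposited abundances corrected for transcript length. Male hypoxia libraries 2 and 3 stood apart. Their adipocyte markers summed to 20.9 and 15.8 CPM against 0.0592 to 1.49 CPM in the other 10 libraries. Among these markers Cfd reached 16.7 CPM, Adipoq 2.19, Cidec 2.05, Ucp1 0.164 and Lep 0.0592 CPM at most, and Plin1 was at 0. The 5 atrial cardiomyocyte markers summed to 490 to 1678 CPM in male hypoxia against 69.8 to 131 CPM in male normoxia. Female hypoxia held 186 to 1051 CPM of the atrial markers and female normoxia 109 to 252 CPM. Of the atrial markers Nppa alone ran from 67.8 to 1512 CPM across the libraries. Myl7, Myl4, Sln and Bmp10 reached at most 57.9, 91.8, 16.2 and 0.143 CPM. Whether the atrial sum reflects atrial cells was not tested. Female normoxia library 3 also stood apart for the proteasome genes, as described below. Results that rest on these libraries are given with and without them.

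Levels per length overlapped between most roles, with mean levels of 15.5 to 145 TPM in the alpha ring and 16.5 to 125 TPM in the ATPase ring. The core subunit Psmb4, a beta subunit without an active site, was the most abundant at a mean of 223 TPM over the 12 libraries (range 175 to 305). The median of the 39 genes was 40.4 TPM. The constitutive catalytic subunits stood near the top, at mean levels of 93.1 TPM for Psmb5, which carries the chymotrypsin-like activity, 138 TPM for Psmb6, the caspase-like subunit, and 108 TPM for Psmb7, the trypsin-like subunit. Their immunoproteasome counterparts were far lower, at 7.78 TPM for Psmb8, 7.5 TPM for Psmb9 and 19.4 TPM for Psmb10. In every library the 3 immunoproteasome genes made up a minor share of the TPM of all 6 catalytic genes, from 6.76% in female normoxia library 3 to 11.9% in male hypoxia library 3. Psmb8 and Psmb9 overlapped in their ranges across libraries (5.80 to 9.93 and 4.29 to 12.5 TPM), while Psmb10 lay above both in every library.

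The 6 ATPase genes had mean levels from 16.5 TPM (Psmc6) to 125 TPM (Psmc3), and the 8 lid genes from 22.7 TPM (Psmd11) to 51.9 TPM (Psmd8). The 3 chaperones that help assemble the ATPase ring, Psmd5, Psmd9 and Psmd10, are not part of the finished particle and were lower than every gene of the ATPase ring, the base and the lid, at 9.55, 3.27 and 4.75 TPM. Subunits known from single tissues were at the bottom. Psmb11, the thymus subunit, was the least abundant at 0.0808 TPM, and Psma8, the testis alpha subunit, was at 0.187 TPM and at 0 in male normoxia library 2.

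Psmb1 was a singular value among the ring subunits and was picked out after its values were seen. It encodes a beta subunit present in every known proteasome type, yet it was listed at 0.161 to 0.763 TPM, from 6.59 to 33.4 estimated counts per library. The other 3 beta subunits without an active site, Psmb2, Psmb3 and Psmb4, had mean levels of 71.4, 94.4 and 223 TPM. Whether reads of Psmb1 were assigned to another gene model was not tested, so its level is taken here as the table gives it.

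**Figure D1:**
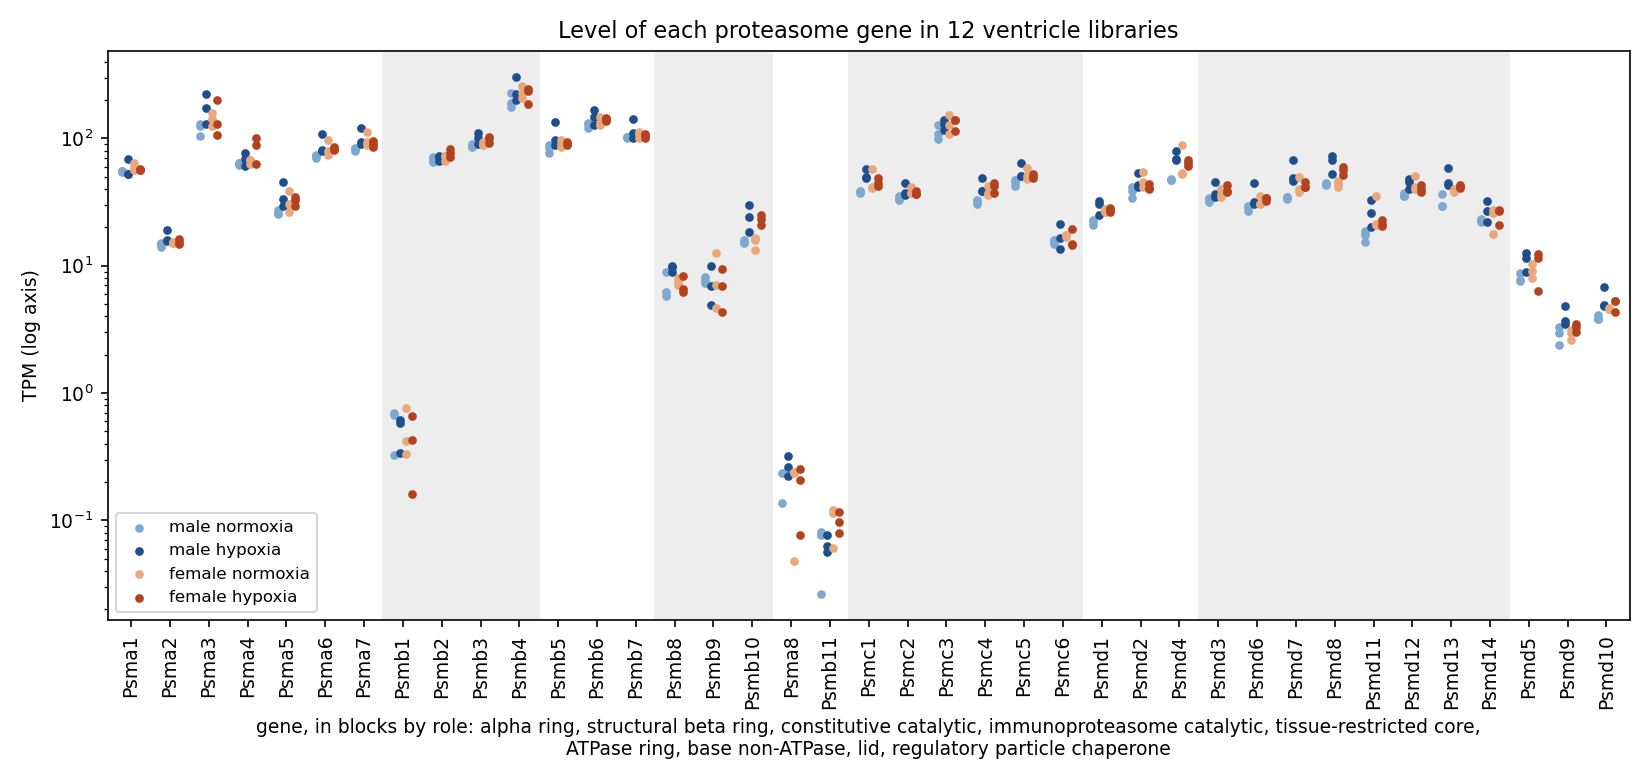
Level of each of the 39 genes (TPM, log axis) in each of the 12 libraries, with 1 point per library coloured by group and genes in blocks by role (the grey and white bands). Psmb8, Psmb9 and Psmb10 sit between 4.29 and 29.8 TPM, below Psmb5, Psmb6 and Psmb7; Psmb1, Psma8 and Psmb11 lie under 1 TPM, and the library with Psma8 at 0 is not drawn.

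Averaged over the sexes, 9 of the 39 genes were lower in hypoxia and 1 was higher at an adjusted p under 0.05 (Benjamini-Hochberg over all genes, edgeR's quasi-likelihood test). The genes called lower were Psma1, Psma2 and Psma4 of the alpha ring, Psmb2, Psmb7 and Psmb9 of the beta rings, Psmc2 and Psmc6 of the ATPase ring and Psmd2 of the base. The only gene called higher was Psmb10. Over all 13960 genes tested, 12.9% were called lower and 15% higher, so the share of proteasome genes called lower was above that background and the share called higher below it. All 39 genes passed the filter on low counts. The sizes were small: 33 of the 39 log2 fold changes were negative, and their median was -0.13 beside -0.01 for all genes tested.

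**Figure D2:**
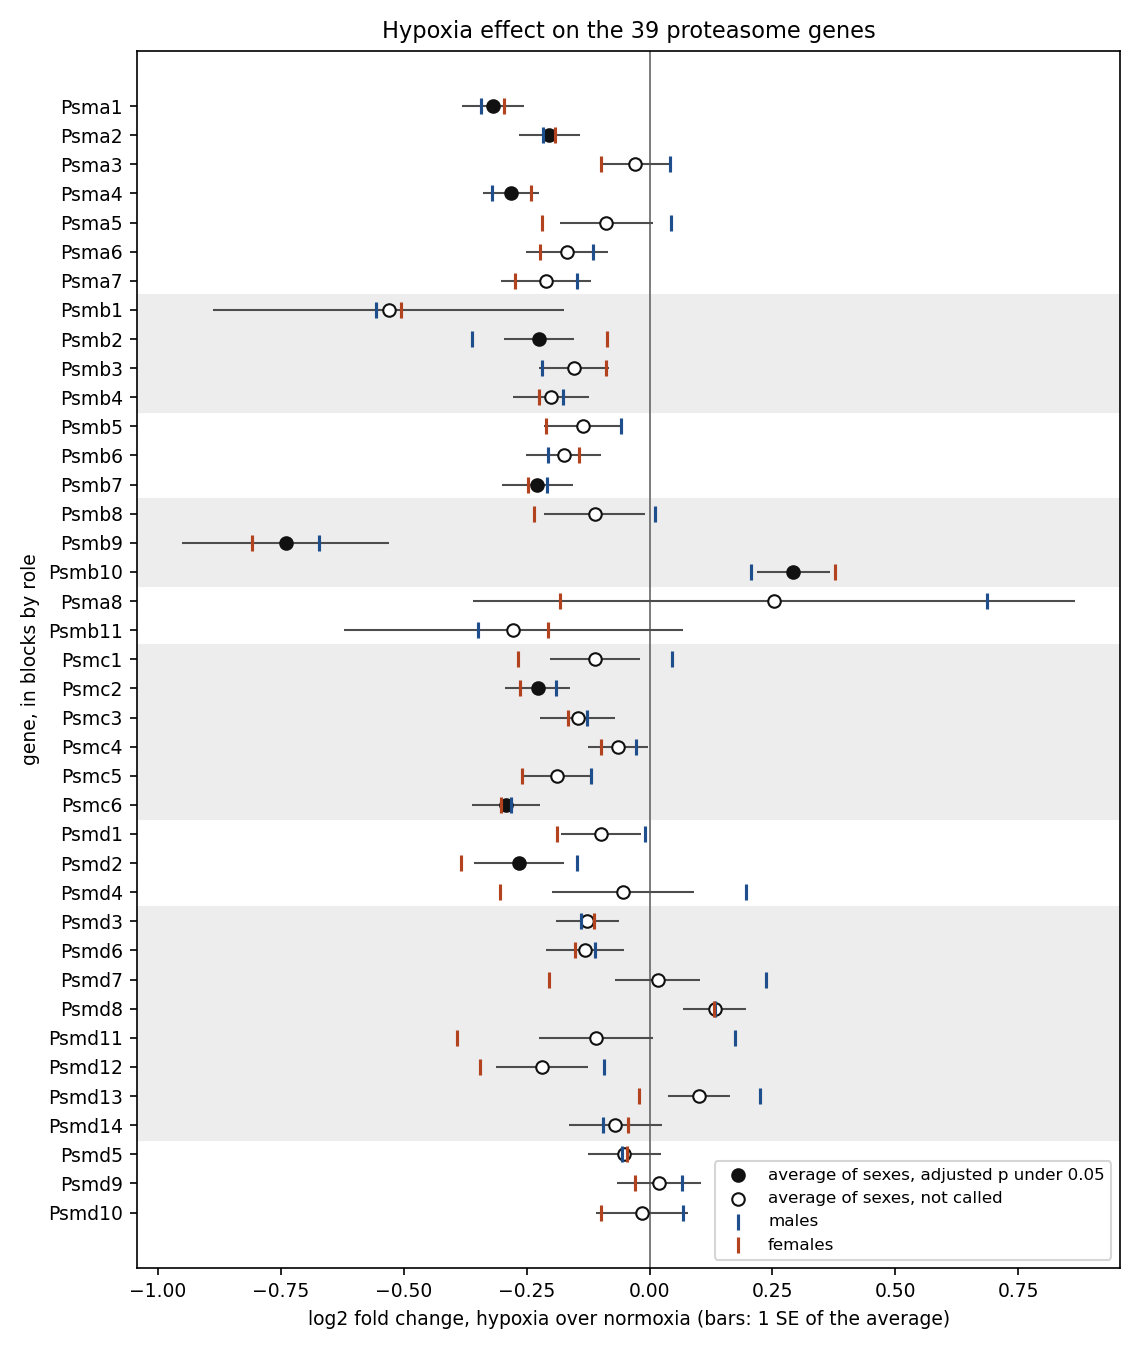
Hypoxia effect on each of the 39 genes as log2 fold change of hypoxia over normoxia, with the average of the sexes as circles (filled where the adjusted p was under 0.05, bars of 1 SE) and the male and female values as ticks. Of the 10 filled circles 9 lie left of 0 and Psmb10 lies right of it; Psma8, Psmb1 and Psmb11 carry the widest bars.

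The direction is relative to the scaling. With library totals alone and no TMM factors, the median of all genes moved to +0.20 and that of the 39 genes to +0.07, and 3 of them were called higher and 0 lower, beside 4160 genes called higher and 640 lower over the whole table (2100 and 1796 with TMM). Their summed TPM share was 0.189% to 0.195% in male normoxia and 0.216% to 0.293% in male hypoxia, and 0.207% to 0.243% in female normoxia and 0.209% to 0.242% in female hypoxia. Mitochondrially encoded genes took 24.5% to 29.3% of the counts in normoxia and 15.8% to 23.1% in hypoxia; the part of this in the shares was not tested. In whole tissue, fewer cells of a type and less RNA per cell cannot be told apart.

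The count of calls also rested on single libraries. Without male hypoxia libraries 2 and 3, which leaves 1 male hypoxia library, fewer of the 39 genes and fewer of all genes were called. The median of the 39 was then -0.12, beside -0.02 for all genes. Without female normoxia library 3 as well, these medians were -0.08 and -0.02. Leaving out 1 library gave 4 calls without male normoxia 1 or female hypoxia 2, and 5 without male hypoxia 3 or female hypoxia 3. It gave 6 without male normoxia 3, male hypoxia 2 or female normoxia 2, and 7 without female normoxia 1. There were 8 without female normoxia 3, 9 without male normoxia 2 or male hypoxia 1, and 11 without female hypoxia 1. Over all genes these fits called 8.25% to 15.4% lower and 10.5% to 17% higher. Psma1, Psma4, Psmc6 and Psmb10 kept their calls in each of the 12 fits that left out 1 library. Under library totals alone Psma1, Psma4 and Psmc6 lost theirs. With the average transcript length as an offset, Psma2, Psma4, Psmb2, Psmb9 and Psmd2 lost their calls. The summed level of the ventricular cardiomyocyte markers was 42330 to 47500 CPM in male normoxia, 31640 to 40370 CPM in male hypoxia, 42690 to 49490 CPM in female normoxia and 33210 to 49610 CPM in female hypoxia, with female hypoxia library 1 the highest of the 12. Myl2 was the 1 of the 6 called, at a log2 fold change of -0.37 (adjusted p = 0.0103), and Myom1 was at 0.06. The part of the cell mixture in the proteasome values was not tested.

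The alpha ring, which forms the gated entry of the core, held 3 of the 9 genes called lower, and all 7 of its log2 fold changes were negative (median -0.20). Psma1 was at 101, 92.7 and 98.2 CPM in male normoxia and 78.4, 80.5 and 71.2 CPM in male hypoxia, and at 104, 94.7 and 95.1 CPM in female normoxia and 85.6, 80.4 and 73.7 CPM in female hypoxia. Every hypoxia library was thus below every normoxia library in both sexes. The log2 fold change was -0.32 ± 0.06 (SE, edgeR adjusted p = 0.00433), a fold of 0.802. This call was lost under library totals alone. Psma4 was at 95.3 to 100 CPM in male normoxia and 77.0 to 81.0 CPM in male hypoxia, and at 87.1 to 99.8 CPM in female normoxia and 75.9 to 82.9 CPM in female hypoxia. Its groups did not overlap in either sex, with a log2 fold change of -0.28 ± 0.06 (adjusted p = 0.0049). That call did not hold per length: the average length in the table was 805 to 847 bases in 10 libraries and 628 and 550 bases in female hypoxia libraries 2 and 3, and with length as an offset the value was -0.10 (adjusted p = 0.447). In TPM Psma4 overlapped in both sexes and its group means were higher in hypoxia, at 61.5 to 64.4 in male normoxia (mean 63.4), 60.6 to 76.4 in male hypoxia (mean 68.4), 63.1 to 68.0 in female normoxia (mean 66.0) and 63.3 to 100 in female hypoxia (mean 84.0). TPM differ from these CPM in the TMM factors as well as in length. Psma2, with a fixed length of 2661 bases, also had higher mean TPM in hypoxia. Its means were 14.6 in male normoxia, 16.8 in male hypoxia, 15.3 in female normoxia and 15.5 in female hypoxia. The parts of length and scaling in the TPM of Psma4 were not tested. In TMM-scaled counts Psma2 fell by 0.20 in log2 units (SE 0.06, adjusted p = 0.0314), without overlap in either sex. Male normoxia library 2 at 66.2 CPM and male hypoxia library 1 at 66.1 CPM nearly met. Its call was lost without male normoxia 1 or 3, male hypoxia 2 or 3, female normoxia 1, or female hypoxia 2 or 3, with adjusted p up to 0.0824. Psma3 was the alpha subunit nearest to 0, at -0.03 ± 0.07 (adjusted p = 0.788).

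Among the beta subunits without an active site, Psmb2 was lower mainly in the male libraries. It was at 79.2, 70.5 and 83.1 CPM in male normoxia and 68.1, 55.0 and 58.3 CPM in male hypoxia, and at 75.3, 73.6 and 71.5 CPM in female normoxia and 74.1, 64.7 and 68.8 CPM in female hypoxia. The male groups did not overlap and the female groups did. Averaged over the sexes it fell by 0.22 (SE 0.07, adjusted p = 0.0364), and the female effect minus the male effect was 0.27 (adjusted p = 0.742), so a difference between the sexes was not called. The averaged call was lost in 8 of the 12 fits that left out 1 library (male normoxia 1 or 3, male hypoxia 2 or 3, female normoxia 1 or 2, female hypoxia 2 or 3), with adjusted p up to 0.0941. Psmb4, the most abundant gene, was at -0.20 ± 0.08 and was not called (adjusted p = 0.0724).

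Of the constitutive catalytic subunits, Psmb7 was called and Psmb5 and Psmb6 were not. Psmb7 was at 178, 165 and 177 CPM in male normoxia and 157, 161 and 132 CPM in male hypoxia, and at 156, 166 and 182 CPM in female normoxia and 147, 147 and 132 CPM in female hypoxia. The groups did not overlap in either sex, and it fell by 0.23 (SE 0.07, adjusted p = 0.0357). That call was lost without male normoxia 1 or 3, male hypoxia 3, female normoxia 2 or 3, or female hypoxia 2 or 3 (adjusted p up to 0.0925), and with the replicate number as a block. Psmb6 was at 122 to 134 CPM in male normoxia, 97.7 to 122 CPM in male hypoxia, 114 to 137 CPM in female normoxia and 104 to 117 CPM in female hypoxia, with a log2 fold change of -0.17 ± 0.08 (adjusted p = 0.108). Psmb5 was at 95.7 to 109, 83.1 to 109, 95.3 to 112 and 81.4 to 92.6 CPM in the same order of groups, with a log2 fold change of -0.13 ± 0.08 (adjusted p = 0.235). Under library totals alone the sign of Psmb5 and Psmb6 turned, to 0.07 and 0.03.

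The 3 immunoproteasome subunits did not share a direction. Psmb10, the trypsin-like subunit that takes the place of Psmb7, was at 31.3, 28.7 and 32.5 CPM in male normoxia and 31.0, 39.1 and 36.5 CPM in male hypoxia, and at 30.3, 28.1 and 24.9 CPM in female normoxia and 35.5, 36.4 and 36.4 CPM in female hypoxia. All 3 female hypoxia libraries were above all 3 female normoxia libraries, while in males hypoxia library 1 lay within the normoxia range. The averaged log2 fold change was 0.29 ± 0.07 (SE; adjusted p = 0.0133), a fold of 1.22. Within a sex it was 0.21 in males (adjusted p = 0.193) and 0.38 in females (adjusted p = 0.0556). Without male hypoxia libraries 2 and 3 the averaged value was 0.19 and the call was lost (adjusted p = 0.17). It rose under all 4 scalings, by 0.50 with library totals alone.

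Psmb9, the subunit that takes the place of Psmb6, had the largest fall in counts of the 10 genes called. It was at 9.5, 8.0 and 9.84 CPM in male normoxia and 5.16, 4.48 and 7.5 CPM in male hypoxia, and at 11.6, 9.24 and 5.06 CPM in female normoxia and 4.68, 3.89 and 6.19 CPM in female hypoxia. The male groups did not overlap; in females normoxia library 3 lay within the hypoxia range. The averaged log2 fold change was -0.74 ± 0.21 (SE; adjusted p = 0.0231). The call did not hold per length: the average transcript length in the table ran from 420 to 775 bases between libraries for Psmb9, and with that length as an offset the value was -0.49 (adjusted p = 0.215). In TPM the groups overlapped in both sexes, at 7.37 to 8.22 in male normoxia, 4.93 to 9.97 in male hypoxia, 4.61 to 12.5 in female normoxia and 4.29 to 9.35 in female hypoxia. These TPM differ from the CPM in the TMM factors as well as in length. The call was also lost without male hypoxia libraries 2 and 3 (adjusted p = 0.0873), and without male normoxia 1 or 3, male hypoxia 2, female normoxia 1 or 2, or female hypoxia 2 (adjusted p up to 0.0604). Psmb8, which takes the place of Psmb5, was at 10.2, 13.9 and 11.1 CPM in male normoxia, 13.0, 10.8 and 11.7 CPM in male hypoxia, 10.9, 12.4 and 12.9 CPM in female normoxia and 9.29, 11.3 and 10.2 CPM in female hypoxia. Its groups overlapped in both sexes and it was not called, at -0.11 ± 0.10 (adjusted p = 0.439).

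**Figure D3:**
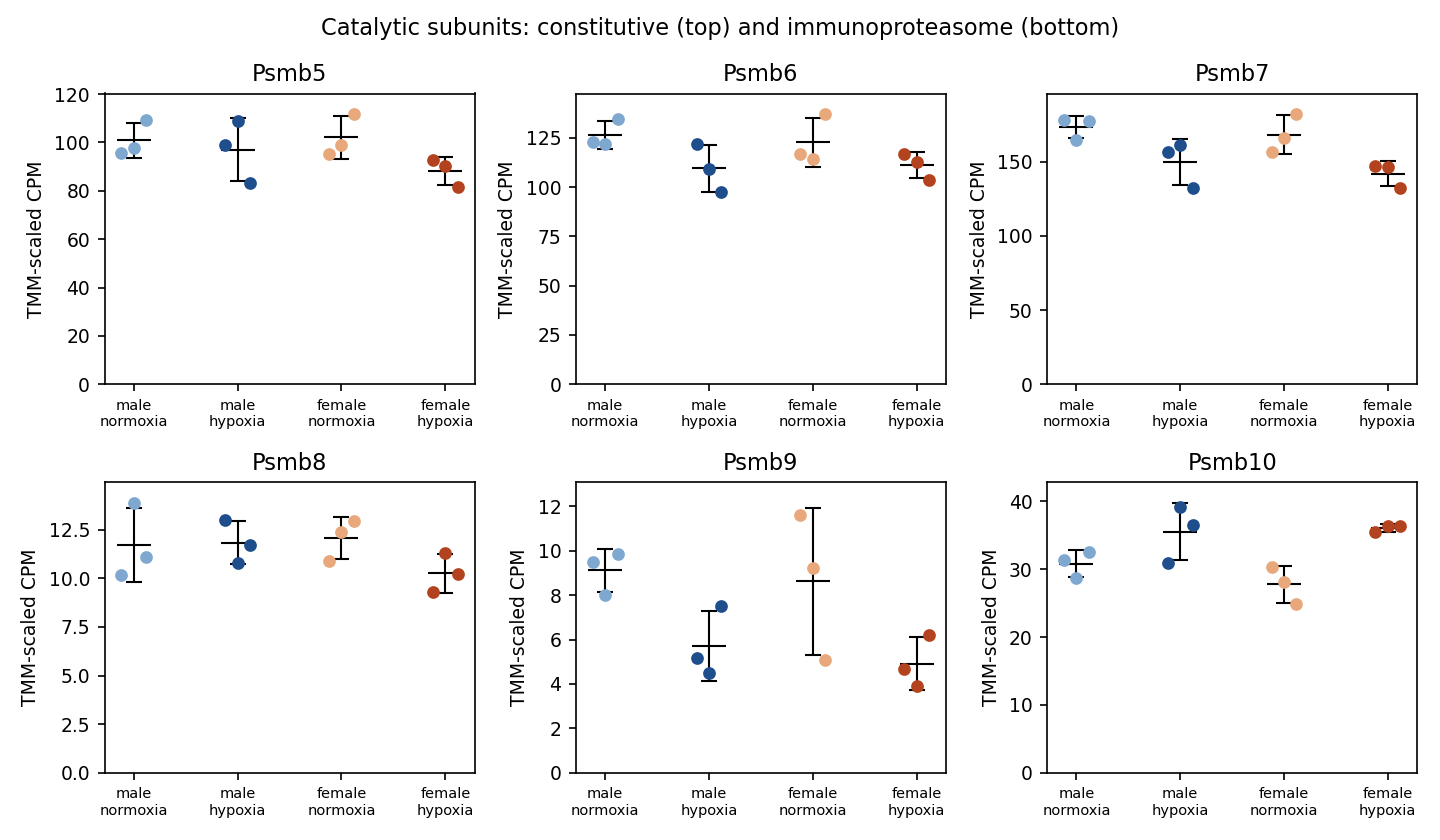
TMM-scaled CPM of the 6 catalytic subunits in each library, with points for libraries and the mean and SD of each group of 3. Psmb10 is the only one of the 6 whose hypoxia libraries lie higher, at 31.0 to 39.1 CPM against 24.9 to 32.5 CPM in normoxia; Psmb9 is lower in every hypoxia library than in every normoxia library other than female normoxia library 3 at 5.06 CPM.

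Set per length against its own counterpart, Psmb10 gained on Psmb7 in hypoxia and for the other 2 pairs no difference was called. Psmb10 TPM amounted to 15.1%, 14.9% and 15.8% of Psmb7 TPM in male normoxia and to 17%, 20.8% and 23.7% in male hypoxia, and to 16.7%, 14.6% and 11.7% in female normoxia and 20.7%, 21.3% and 23.7% in female hypoxia. Every hypoxia library lay above every normoxia library of either sex. The log2 ratio was 0.52 higher in hypoxia, with a two-sided exact permutation p of 0.005 when oxygen labels were exchanged within each sex, the smallest that the 400 arrangements can give, and 0.015 after adjustment over the 3 ratios. Since both genes come from the same library, the ratio does not depend on the scaling factors. It was 0.39 without male hypoxia libraries 2 and 3 (adjusted exact p = 0.0375) and 0.45 to 0.59 with any 1 library left out. The fixed average length of 1061 bases for Psmb10, and lengths between 910 and 910.3 for Psmb7, leave the ratio the same in counts.

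Psmb8 amounted to 8.39% ± 1.91 (SD, n = 3) of Psmb5 TPM in male normoxia, 9.17% ± 1.59 in male hypoxia, 8.27% ± 0.0520 in female normoxia and 7.73% ± 1.23 in female hypoxia. The log2 ratio differed by 0.01 between hypoxia and normoxia (adjusted exact permutation p = 0.95). Psmb9 amounted to 6.10% ± 0.368 of Psmb6 TPM in male normoxia, 5.09% ± 2.35 in male hypoxia, 6.13% ± 3.34 in female normoxia and 4.90% ± 1.81 in female hypoxia, and the log2 ratio differed by -0.30 (adjusted exact permutation p = 0.57). In every group but male normoxia (5.69% to 6.40%), the spread of the Psmb9 ratio was larger than the difference between the group means. It ran from 3.15% to 9.73% among the female normoxia libraries alone.

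**Figure D4:**
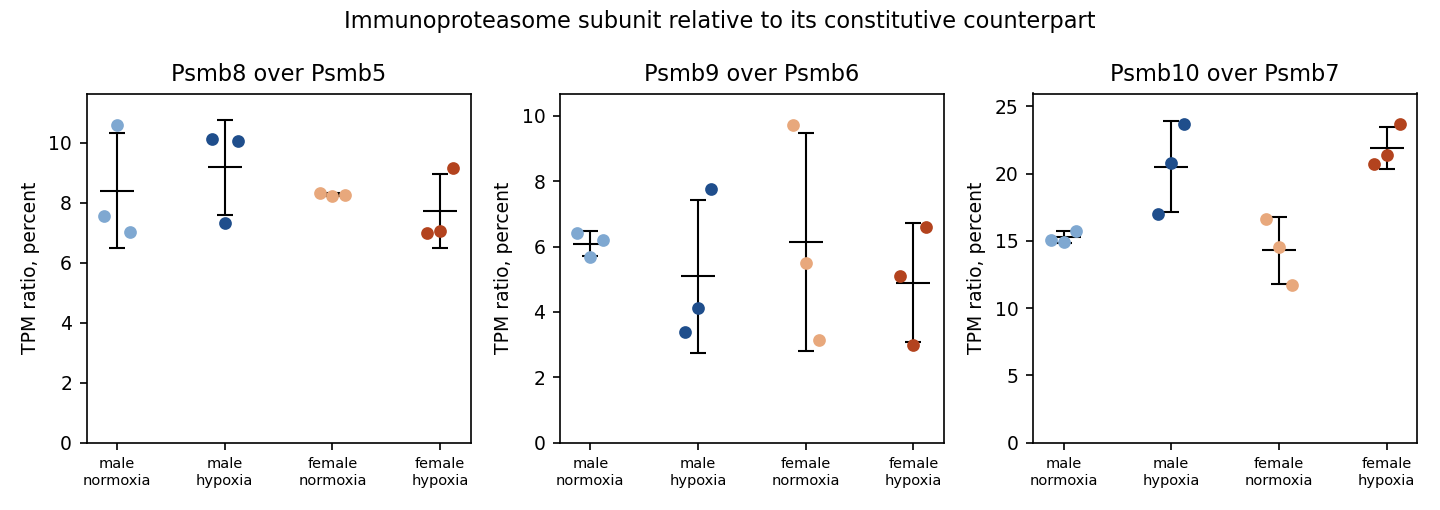
TPM of each immunoproteasome subunit as percent of the TPM of its constitutive counterpart, by library, with the mean and SD of each group of 3. For Psmb10 over Psmb7 all 6 hypoxia libraries (17% to 23.7%) lie above all 6 normoxia libraries (11.7% to 16.7%); for the other 2 pairs the groups overlap.

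Markers of several other cell types were higher in hypoxia, as Psmb10 was. Of the 10 leukocyte markers 8 passed the count filter. The myeloid markers Lyz2, Cd68, Itgam and Adgre1 were the 4 called higher in hypoxia, and 0 were called lower. Not called were Csf1r, also a myeloid marker, at 0.18, the general leukocyte marker Ptprc at 0.09, Cd52 at -0.29 and the B cell marker Cd79a at -1.13. Their sum over all 10 was 180 to 257 CPM in male normoxia, 356 to 460 CPM in male hypoxia, 212 to 259 CPM in female normoxia and 215 to 323 CPM in female hypoxia. Lyz2 alone was at 123 to 349 CPM across the libraries and made up most of that sum. The T cell marker Cd3e was at 0 in 8 libraries and at most 0.175 CPM. The 5 endothelial markers summed to 644 to 790 CPM in male normoxia, 911 to 1160 CPM in male hypoxia, 756 to 862 CPM in female normoxia and 948 to 1227 CPM in female hypoxia, with 4 of 5 called higher. All 6 erythroid markers were called higher (median log2 fold change 2.49), and 3 of 5 fibroblast markers were (median 0.45). Their part in the Psmb10 result was not tested.

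Psmb9 lies head to head with Tap1, which encodes a chain of the transporter that carries proteasome-made peptides to MHC class I molecules. In RefSeq their starts on chromosome 17 are separated by the interval chr17:34187331-34187555 (GRCm38.p6), and their promoter windows, from 250 bases before to 50 bases after the start, share 275 bases. The interval is shown because both genes were called lower: Tap1 was at 15, 25.0 and 13.7 CPM in male normoxia, 12.7, 8.10 and 11.4 CPM in male hypoxia, 16.9, 22.1 and 10.7 CPM in female normoxia and 9.65, 12.1 and 13.9 CPM in female hypoxia, a log2 fold change of -0.61 ± 0.21 (adjusted p = 0.0472). For both genes female normoxia library 3 was the lowest of its group. The 250 bases before the RefSeq starts of Psmb10 (chr8:105938393-105938642, minus strand) and Psmb5 (chr14:54617996-54618245, minus strand) are shown beside it, since Psmb10 was the only gene called higher and Psmb5 is a constitutive subunit with a match to one of the motifs searched. Sequences run 5′ to 3′, the interval on the Tap1 strand (plus), and capitals mark motif matches.
Psmb9-Tap1 interval: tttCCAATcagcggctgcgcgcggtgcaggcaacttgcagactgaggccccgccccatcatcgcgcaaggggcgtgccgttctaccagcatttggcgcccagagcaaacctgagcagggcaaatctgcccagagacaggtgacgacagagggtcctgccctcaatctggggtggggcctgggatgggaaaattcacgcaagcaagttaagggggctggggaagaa
Psmb10 upstream: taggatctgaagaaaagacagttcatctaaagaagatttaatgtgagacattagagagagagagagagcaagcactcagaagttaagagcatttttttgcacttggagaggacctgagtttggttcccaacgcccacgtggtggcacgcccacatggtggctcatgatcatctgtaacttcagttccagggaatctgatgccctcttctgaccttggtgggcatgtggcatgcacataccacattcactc
Psmb5 upstream: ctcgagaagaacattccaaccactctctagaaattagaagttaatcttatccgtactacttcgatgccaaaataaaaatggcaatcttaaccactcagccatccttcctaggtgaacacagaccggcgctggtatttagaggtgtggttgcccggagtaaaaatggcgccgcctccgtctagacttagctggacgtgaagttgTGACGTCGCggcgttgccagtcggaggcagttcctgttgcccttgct

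The capitals in the interval are a CCAAT box, which NF-Y binds, and those in the Psmb5 sequence match TGACNNNGC, the antioxidant response element through which Nfe2l1 and Nfe2l2 act. None of the 4 motifs searched was found in the 250 bases shown for Psmb10. Windows were matched for 32 of the 39 genes, as 34 windows of RefSeq (GRCm38.p6), and searched on both strands. TGACNNNGC was found in 14.7% of these 34 windows and in 12.4% of all 32851 windows of the table. The interferon response core GAAANNGAA was in 14.7% against 8.56%, the gamma activated sequence TTCNNNGAA in 5.88% against 8.30%, and CCAAT in 38.2% against 37.4%. Of the catalytic subunits with a window, Psmb5 and Psmb6 held TGACNNNGC, Psmb8 held TTCNNNGAA and Psmb9 held CCAAT. The matches in the sequences shown do not overlap one another. These are matches of letters in a window and carry no measurement of binding.

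In the regulatory particle, the ATPase ring held 2 genes called lower of 6, the base 1 of 3, the lid 0 of 8 and the assembly chaperones 0 of 3. Psmc6 was at 56.4, 55.2 and 60.8 CPM in male normoxia and 42.5, 52.3 and 46.9 CPM in male hypoxia, and at 57.8, 58.2 and 60.7 CPM in female normoxia and 46.6, 43.8 and 52.9 CPM in female hypoxia. The groups did not overlap in either sex, and the log2 fold change was -0.29 ± 0.07 (adjusted p = 0.0105). Psmc2 fell by 0.23 (SE 0.07, adjusted p = 0.0252), with male libraries at 91.0 to 104 CPM in normoxia and 79.8 to 90.2 CPM in hypoxia, and female libraries at 96.5 to 113 and 82.2 to 89.9 CPM. Its groups did not overlap either, and its call was lost without male normoxia 1, male hypoxia 3 or female hypoxia 2 or 3 (adjusted p up to 0.066).

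Psmd2, the large scaffold of the base that docks ubiquitin shuttle factors, was at 203, 199 and 175 CPM in male normoxia, 177, 178 and 166 CPM in male hypoxia, 192, 204 and 257 CPM in female normoxia and 191, 158 and 151 CPM in female hypoxia. The male groups overlapped; the female groups did not, though 192 and 191 CPM nearly met. It fell by 0.27 (SE 0.09, adjusted p = 0.0496), and the call was lost in 9 of the 12 fits that left out 1 library, with adjusted p up to 0.12: each of them except those without male normoxia 3, female normoxia 1 or female hypoxia 1. In the lid, Psmd12 had the smallest p, at -0.22 ± 0.09 (adjusted p = 0.1). Psmd8 and Psmd13 were on the positive side, at 0.13 and 0.10 (adjusted p = 0.141 and 0.249). Psmd5, the chaperone with the smallest p, was at -0.05 ± 0.07 (adjusted p = 0.638), between 15 and 19.2 CPM in all 12 libraries.

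Within males, 3 of the 39 genes were called lower (Psma1, Psma4 and Psmb2) and 0 higher, where 7.1% of all genes were called lower and 8.47% higher. DESeq2 called 4 lower and 0 higher (9.94% and 10.9% of all genes). With library totals alone the calls turned to 4 higher and 0 lower (23.2% and 2.55% of all genes), and 32 of the 39 values were positive, with a median of 0.15. Psma1 was at -0.34 (adjusted p = 0.0259), Psma4 at -0.32 (adjusted p = 0.0225) and Psmb2 at -0.36 (adjusted p = 0.0341). The count was 0 when male normoxia 1 or 3 or male hypoxia 2 or 3 was left out. In those fits 2.51% to 3.34% of all genes were called lower and 3.65% to 4.29% higher. Within females 0 of the 39 were called in either direction, where 2.02% of all genes were called lower and 3.97% higher; 11 of the 39 had an unadjusted p under 0.05 (24.7% of all genes), and the median was -0.21. DESeq2 called 3 lower and 1 higher in females (4.63% and 7.5% of all genes). The smallest p belonged to Psmb10 and Psma1 (adjusted p = 0.0556 and 0.0696). The count in females was 1 without male hypoxia 1 (1.75% of all genes lower, 3.49% higher). It was 1 without female normoxia 3 (2.48% and 4.49%), and 4 without female hypoxia 1 (5.76% and 8.76%). Without female normoxia 3 the female median of the 39 was -0.08, beside -0.01 for all genes.

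Counted by overlap alone, every hypoxia library was below every normoxia library for 14 of the 39 genes in males (19.8% of all genes) and 14 in females (12.7%), and for 9 in both (6.92%). The opposite order held for 4 of the 39 in males, Psmd4, Psmd7, Psmd11 and Psmd13 (21.5% of all genes), and for 2 in females, Psmb10 and Psmd8 (13.2%). In both sexes the share that was lower thus lay above its background and the share that was higher below it. The 4 genes higher in males belong to the regulatory particle.

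No gene of the 39 was called for a difference between the sexes. The female minus male hypoxia effect called 0 of 39 (0.00716% of all genes), females against males in normoxia 0 (0.0716%) and in hypoxia 0 (0.15%) with edgeR. At an unadjusted p under 0.05 these were 2, 1 and 0 of the 39, beside 6.79%, 7.29% and 9.63% of all genes. DESeq2 called 0 in each, beside 0.487%, 0.415% and 1.32% of all genes. The 2 smallest p for the female minus male effect belonged to lid genes. Psmd11, a lid scaffold subunit, was at 64.9, 64.5 and 60.5 CPM in male normoxia and 65.4, 75.5 and 73.2 CPM in male hypoxia, and at 66.4, 68.3 and 109 CPM in female normoxia and 66.3, 58.7 and 60.4 CPM in female hypoxia. Every male hypoxia library was above, and every female hypoxia library below, the normoxia libraries of its sex. The nearest libraries nearly met, at 64.9 and 65.4 CPM in males and 66.4 and 66.3 CPM in females. The difference of effects was -0.57 ± 0.23 (edgeR adjusted p = 0.725). Psmd7, the partner of the deubiquitinase Psmd14, differed by -0.44 ± 0.17 (adjusted p = 0.718). Without female normoxia library 3 these differences were -0.30 and -0.29.

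Female normoxia library 3 held the highest CPM of the 12 libraries for 21 of the 39 genes, where it did so for 16.9% of all genes tested. Of these 21, 13 were genes of the regulatory particle and its chaperones and 8 of the core. This pattern was noticed after the values were seen. Psmd4, the ubiquitin receptor of the base, was at 152 CPM there against 78.5 and 82.2 CPM in the other female normoxia libraries, 1.89 times their mean, and Psmd11 was at 1.61 times theirs. Psmc1 and Psma7 followed at 1.45 and 1.44 times. The genes were not raised together: Psmb9 was at 0.483 times the mean of the other 2 libraries, Psmd14 at 0.728 times and Psmb10 at 0.851 times, while Psma1, Psmb2 and Psmd5 lay between 0.956 and 0.998 times. Leaving out the 3 genes under 1 TPM, the median was 1.12 times for 16 core genes and 1.17 times for 20 genes of the regulatory particle and its chaperones. Without this library 8 genes were called in the averaged contrast in place of 10 (15% of all genes lower, 17% higher). Psmb7 and Psmd2 were among those that lost their call.

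**Figure D5:**
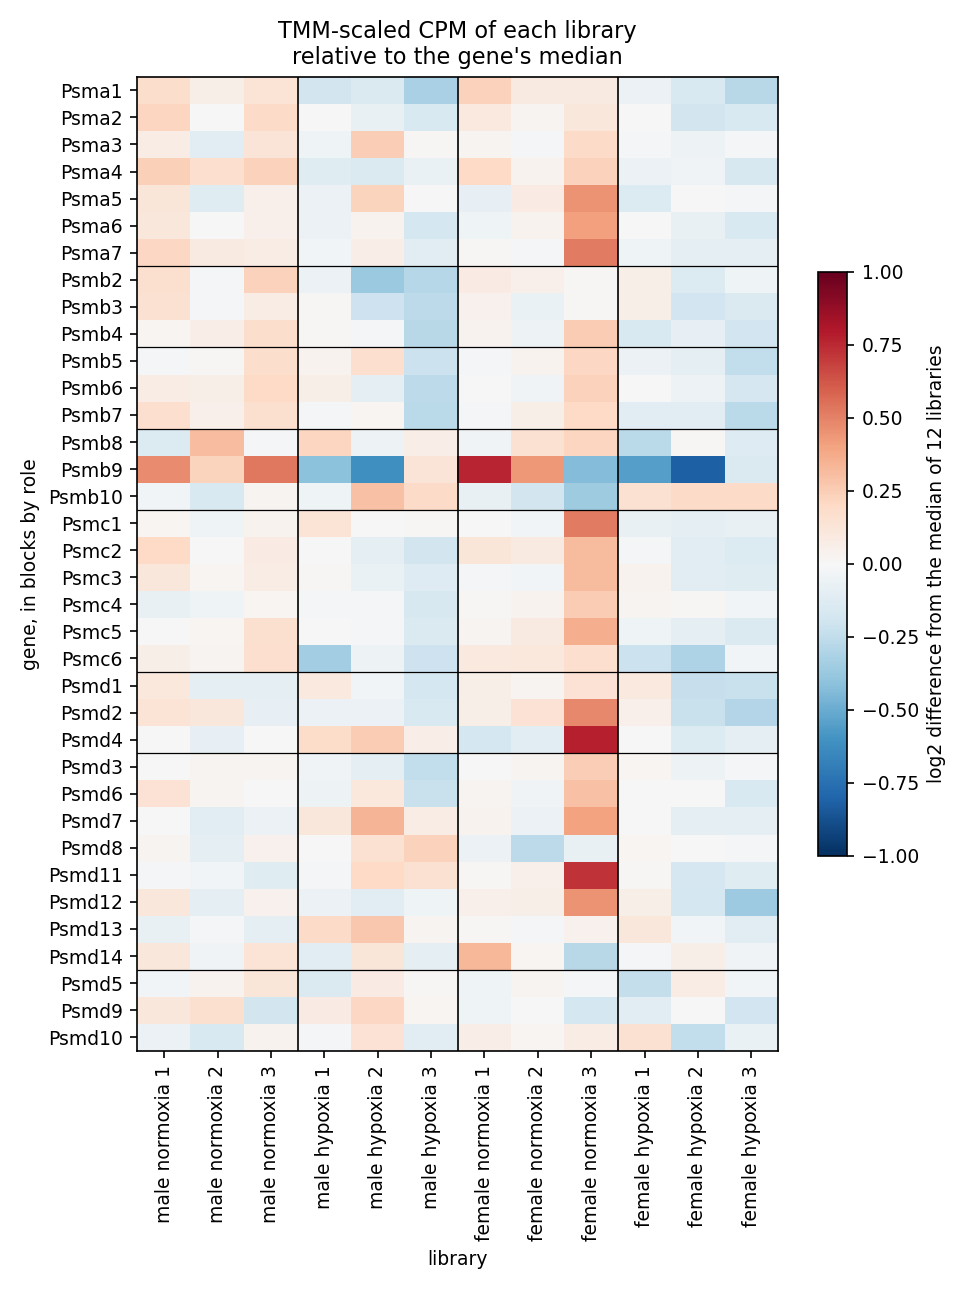
TMM-scaled CPM of 36 genes in each library as log2 difference from the median of the gene over the 12 libraries (red higher, blue lower), with rows in blocks by role and the 3 genes under 1 TPM left out. Female normoxia library 3 stands out as a red column with Psmd4 and Psmd11 strongest and Psmb9, Psmb10 and Psmd14 blue; the Psmb9 row has the widest spread.

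Genes that act with the proteasome were taken from lists of known partners, each read beside the 12.9% of all genes called lower and 15% called higher. Their calls, that of Tap1 above included, come from the main fit alone. How they fare under other scalings, the length offset or left-out libraries was not tested. Of 5 activators and inhibitors 1 was called lower: Psme1, a subunit of the interferon-inducible 11S cap, at 69.1 to 92.5 CPM in the 6 hypoxia libraries against 95.8 to 123 CPM in the 6 normoxia libraries (log2 fold change -0.50 ± 0.08, adjusted p = 0.00172). Its partner Psme2 was at -0.11 (adjusted p = 0.198). Of 5 chaperones that build the core, 3 were called lower: Psmg2 at -0.53 (adjusted p = 0.000786), its partner Psmg1 at -0.33 (adjusted p = 0.0239) and Pomp, which acts late in core assembly, at -0.28 (adjusted p = 0.0112). Psmg2 was at 14.2 to 17.5 CPM in hypoxia and 21.6 to 25.8 CPM in normoxia, without overlap in either sex.

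Among the bound factors, the deubiquitinase Usp14 was called lower (-0.23, adjusted p = 0.02). Of 7 genes of transcriptional control 1 was called higher, Ddi2, the protease that activates Nfe2l1 (0.22, adjusted p = 0.0416), and Nfe2l1 itself, the factor that restores proteasome genes when activity is short, was at -0.09 (adjusted p = 0.506). None of the 6 ubiquitin genes and ubiquitin-activating enzymes was called with edgeR; Ubb had the smallest p, at 0.17 (adjusted p = 0.112) and was the 1 of the 6 with an unadjusted p under 0.05 (40.7% of all genes). Of 11 genes of class I presentation 3 were called lower: H2-K1, a class I heavy chain, at -0.58 (adjusted p = 0.00189), its light chain B2m at -0.52 (adjusted p = 0.0119), and Tap1. Of the other 8, 5 values were positive and none was called. Of 14 interferon response genes none was called with edgeR and 1 had an unadjusted p under 0.05; 10 of the 14 values were negative.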

How the data were processed

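Ventricle of 12 libraries in 4 groups of 3 was measured by strand-specific mRNA sequencing. Per the submitters' processing notes, reads were quantified with Salmon and checked with FastQC, with GRCm39 named as build; versions, annotation and strand setting are not given in the sources used here. The deposited table holds, per the file headers, estimated counts, TPM and average transcript lengths per gene and library. Estimated counts deposited by the authors were rounded to whole numbers; TPM deposited by the authors summed to 889905 to 926060 per library and served for levels and ratios. Symbols came from an annotation of another build; 269 of 39210 genes had none.

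edgeR 4.0.16 (R 4.3.3) fitted group means to the 12 libraries after filterByExpr (13960 genes) and TMM, with quasi-likelihood tests, 8 residual degrees of freedom and Benjamini-Hochberg adjustment over all genes tested. Standard errors were derived from the fold change and F statistic. CPM were computed here from the deposited counts. The 3 ratios were tested by exact permutation of log2 TPM ratios within sex. The edgeR test was checked on simulated counts. Alternatives were DESeq2 1.42.0, limma 3.58.1 (voom), other scalings, filters, a length offset, left-out libraries and a replicate block. The genes named were the 6 catalytic subunits, in each role or list up to 4 genes called with the smallest p (else the 1 with the smallest p), the 2 smallest p in the male, female and interaction contrasts, and the most and least abundant; genes outside this rule were picked after their values were seen. Some genes that the rule named are not reported here. Members, lists and tests were chosen with earlier results of these data known. Promoter sequences are RefSeq's (GRCm38.p6); Psma8 and 6 other genes without a matched window, and protein sequences, were not analysed here.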

Additional observations from a re-analysis of the deposited data

How the results depend on the processing

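For hypoxia averaged over the sexes, 10 of the 39 genes were called (12.9% of all genes lower, 15% higher). The count was 3 with library totals alone (4.58% and 29.8%), 5 with no filter on low counts (6.57% and 8.31%) and 5 with the length offset (9.1% and 10.8%). It was 4 to 11 with 1 library left out (8.25% to 15.4% and 10.5% to 17%). Without male hypoxia libraries 2 and 3, with or without female normoxia library 3, fewer of the 39 and of all genes were called. For males 3 were called, all lower (7.1% of all genes lower, 8.47% higher). The count was 4 with library totals alone, all higher (2.55% and 23.2%), and 4 with DESeq2, all lower (9.94% and 10.9%). It was 1 with no filter (3.49% and 4.42%), 1 with the length offset (3.94% and 5.11%) and 0 to 3 with 1 library left out (2.51% to 9.73% and 3.65% to 11.5%). With the same 2 sets of libraries left out, the single male hypoxia library is assumed to vary like the other groups. The male median of the 39 was then -0.07 in both, beside -0.01 for all genes. For females 0 were called (2.02% of all genes lower, 3.97% higher). The count was 1 with library totals alone (0.996% and 7.82%) and 1 with at least 1 CPM required in every library (3.41% and 6.15%). It was 4 with DESeq2 (4.63% and 7.5%) and 0 to 4 with 1 library left out (0.0909% to 5.76% and 0.287% to 8.76%). Without the 3 libraries the female median of the 39 was -0.08, beside -0.01 for all genes. No gene of the 39 was called for a difference between the sexes under any alternative run. The cause of these shifts was not tested.

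Under library totals alone 27 of the 39 averaged values were positive, against 6 with TMM. Among the genes recomputed singly, the sign changed for Psmb5 (0.073), Psmb6 (0.030), Psmb8 (0.092), Psma2 (0.00084), Psmd5 (0.16) and Psmb4 (0.0075), none of them called there. The Psmb10 to Psmb7 log2 ratio was 0.45 to 0.59 with 1 library left out. The Psmb8 to Psmb5 ratio, 0.01, ran from -0.05 to 0.10 with 1 library left out and was negative without male normoxia 1 (-0.02) or 3 (-0.04), male hypoxia 1 (-0.03) or 3 (-0.02), or female hypoxia 3 (-0.051). The Psmb9 to Psmb6 ratio ran from -0.50 to -0.10.

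With the replicate block, that is, the replicate number as a term, 8 genes were called, Psmb7 and Psmd2 being lost. Over all genes 13.4% were called lower and 14.8% higher. The Psmb10 to Psmb7 ratio kept its 0.52 with an adjusted exact permutation p of 0.0938, the smallest that its 64 arrangements allow after adjustment. The correlation of deviations from the group means over 18 same-numbered pairs ran from -0.05 to 0.19, with 1 over 0.1. These correlations alone cannot tell whether the numbers pair the libraries.

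With 3 libraries per group, precision was low for the genes with few counts: Psma8, Psmb1 and Psmb11 had standard errors of 0.61, 0.36 and 0.34 on the log2 scale, beside 0.06 for Psma1.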
